A study of Mus musculus with 3 samples.

Results

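The 6 genes Lefty1, Lefty2, Sox2, Trim28, Esrrb and Sall4, of 55413 genes of the GENCODE M21 annotation on the mouse assembly GRCm38, were examined site by site. They were taken because the study measured DNA methylation at their enhancers with a quantitative PCR that depends on methylation, and not for any value in the tables analysed here. All CCGG sites inside these genes or within 50 kb of them were used, which gave 761 of the 1026118 CCGG sites listed in at least 1 library. The positions of the tested amplicons were not given in the sources used here, so no site was assigned to a tested enhancer.

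All 3 libraries came from E14Tg2A, an established mouse embryonic stem cell (ESC) line. The undifferentiated library came from ESCs that had not been induced to differentiate. The untreated library came from cells on day 7 of differentiation without pargyline, an inhibitor of the histone demethylase LSD1. The treated library came from cells on day 7 of differentiation with 3 mM pargyline (0 mM in the other 2 libraries). According to the paper, ESCs were grown with leukemia inhibitory factor (LIF), and differentiation was started by removing LIF and then adding retinoic acid. Both day 7 libraries thus also differ from the undifferentiated one in LIF and retinoic acid. There was 1 library per condition from 1 cell line, so no difference had a replicate check and no test was made. MethylRAD sequences the short fragments that the enzyme FspEI releases around methylated cytosines, and the reads at a CCGG site therefore increase with its methylation. The undifferentiated library had 31614077 reads at CCGG sites, the untreated library 36654573 and the treated library 25766968. The lists start at 5 reads, so an unlisted site had up to 4 reads or gave no fragment that maps to 1 place. Ratios below are of reads per 1000000 CCGG reads, with exact 95% intervals. These intervals reflect counting error alone, because copies made by PCR cannot be told from separate fragments. In bins, they also take reads at neighbouring sites as separate, although 69 of the 761 sites lie under 32 bp from another listed site and can share fragments.

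Pluripotent ESCs run a network of transcription factors and signals that is shut down when they differentiate. LSD1 takes methyl groups off histone H3, including marks of active enhancers, and DNA methyltransferases add methyl groups to the cytosines of CpG sites. Promoters rich in CpG sites mostly stay free of methylation, whereas CpG sites elsewhere in the genome are mostly methylated.

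The windows of the 6 genes together held 19893 reads in undifferentiated, 22637 in untreated and 16285 in treated cells, or 629, 618 and 632 reads per 1000000 CCGG reads. The ratio of untreated to undifferentiated was 0.982 (interval 0.963 to 1.0), and that of treated to undifferentiated was 1.004 (interval 0.984 to 1.03). Treated cells were at 1.023 of untreated cells (interval 1.003 to 1.044). Single windows differed more, with the Lefty window at 0.897 (interval 0.862 to 0.934) in untreated and the Trim28 window at 1.10 (interval 1.04 to 1.16) in treated against undifferentiated cells. Of the 761 sites, 619 were listed in undifferentiated, 644 in untreated and 645 in treated cells, and 512 in all 3. The differences described below are those at single sites and 5 kb bins.

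A site was called when its ratio was at least 2-fold either way and the interval left out 1, with an unlisted site taken as 4 reads. In untreated against undifferentiated cells, 76 of 711 sites were called higher (10.7%) and 97 lower (13.6%), beside 12.5% higher and 15.2% lower of all CCGG sites tested in the genome. In treated against undifferentiated cells, 127 of 726 sites were called higher (17.5%) and 83 lower (11.4%), beside 17.4% and 14.2% in the genome. In treated against untreated cells, 83 of 720 sites were called higher (11.5%) and 44 lower (6.11%), beside 10.0% and 3.98%. The shares near the 6 genes were close to those of the genome, with the lower calls of the last comparison somewhat above it, and no test was made of such differences, so the number of called sites is not a result about these genes. The median log2 ratios over sites near the genes were 0.05, 0.13 and 0.13 in the 3 comparisons, beside 0.05, 0.10 and 0.09 over all sites tested. Scaling to all mapped reads instead of CCGG reads changed the log2 ratios by -0.32, -0.69 and -0.38 in the same order. The sites called higher were then 46, 44 and 42, and 45, 135 and 50 sites without a call became lower. The directions below, and statements that a site or bin was not called, are therefore relative to CCGG reads unless another scaling is named. Every lower call was kept with that scaling. Of the sites given below, the higher calls lost were those at 180888735, 180888748, 180888760, 180935398, 34611507, 12971162, 12999202, 86469504, 86531842, 168765071, 168767048 and 168769473 in untreated against undifferentiated cells, at 180911689, 180935098, 180935177, 180935398, 34610474, 34611507, 34642033, 34679488, 86361823, 86469692, 86534163, 168761411, 168767048, 168771167 and 168771634 in treated against undifferentiated cells, and at 180890411, 180934754, 12999202, 13030612, 86469504, 86469692 and 168731192 in treated against untreated cells.

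A 5 kb bin was called when its summed reads differed by at least 1.5-fold, the interval left out 1 and the higher library had at least 30 reads. Of the 152 bins with a listed site, 20 of 138 tested were higher and 20 lower in untreated than in undifferentiated cells (14.5% each), beside 18.3% and 17.9% of the bins of the genome. Treated cells had 24 of 137 bins higher (17.5%) and 17 lower (12.4%) than undifferentiated cells, beside 20.7% and 20.4%. Against untreated cells, 18 of 136 bins were higher (13.2%) and 13 lower (9.56%) in treated cells, beside 10.7% and 8.81%. The share of bins lower in treated than in undifferentiated cells was below that of the genome and the other shares differed less from it. No test was made, and the numbers of called bins are likewise not a result about the 6 genes. Unlisted sites count as 0 in these sums. With each of them at 4 reads in every library, 15 of the 20 higher and 17 of the 20 lower calls were kept in the first comparison, 21 of 24 and 16 of 17 in the second, and 16 of 18 and 6 of 13 in the third. Calls given below that were lost are marked. Scaled to all mapped reads, 9 bins were higher and 44 lower in the first comparison, 5 and 72 in the second and 7 and 37 in the third, so the balance of directions rests on the scaling. Every lower call was kept with that scaling. The higher calls that were kept were those at 180885001, 34610001, 13025001, 13040001, 86530001, 168710001, 168740001, 168760001 and 168765001 in the first comparison, at 180940001, 34610001, 13025001, 86340001 and 168765001 in the second, and at 180940001, 12960001, 12995001, 86395001, 86440001, 86450001 and 168735001 in the third, and no others. The bin at 168765001, with 0 reads in undifferentiated cells, cannot lose its call by scaling alone. With each unlisted site at 4 reads as well, its call was kept in the first (1.75-fold, interval 1.15 to 2.72) and lost in the second comparison (1.11-fold, interval 0.696 to 1.80). With both changes, calls kept under the scaling alone were also lost at 180885001 and 13040001 in the first comparison. They were lost at 180940001 and 86340001 in the second, and at 12995001 and 86395001 in the third. Conversely, the higher calls at 86450001 and 168710001 in the second comparison were lost with the scaling alone but not with both changes.

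**Figure D1:**
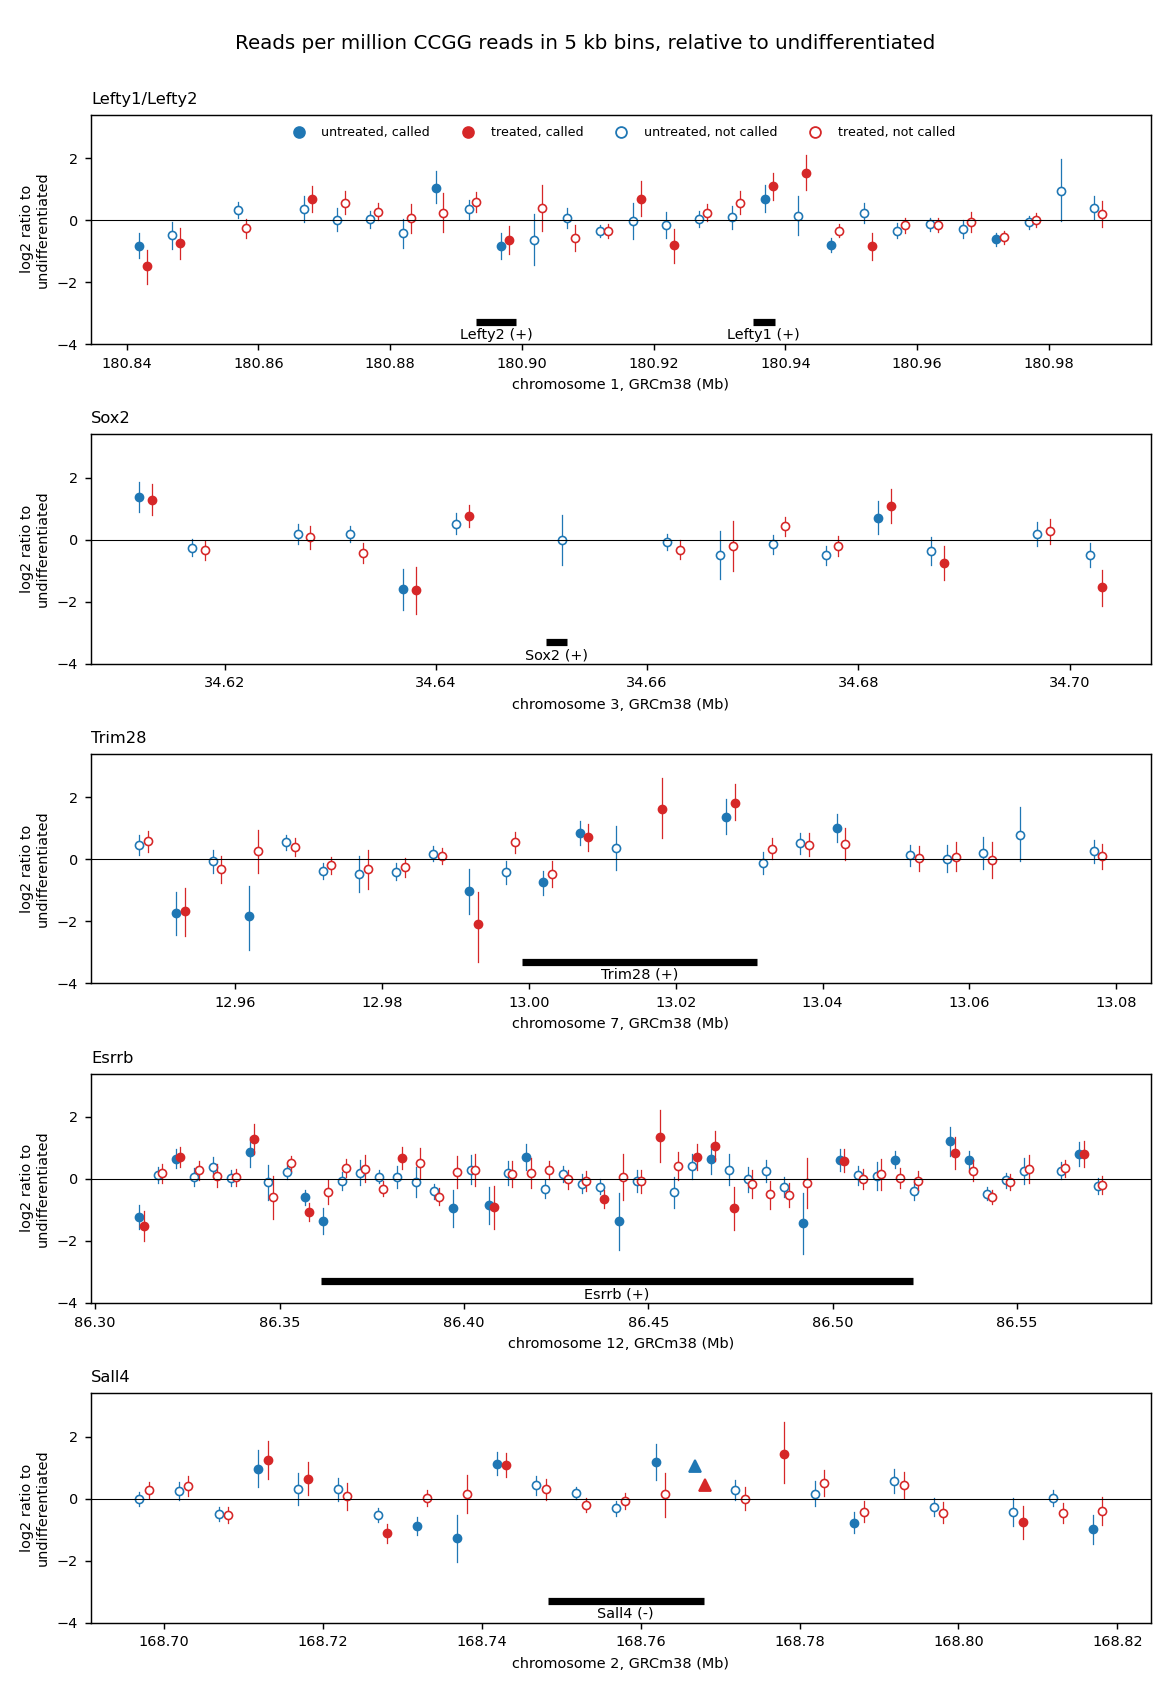
Log2 ratio of reads per 1000000 CCGG reads in each 5 kb bin (y axis) along the windows of the 6 genes (x axis, position in Mb on GRCm38), for untreated (blue) and treated (red) against undifferentiated cells, with bars for exact 95% counting intervals, filled points for called bins and black bars for the genes. Triangles mark the bin at the start of Sall4, which had 0 listed reads in undifferentiated cells, and stand at the ratios with 4 reads at each of its 8 sites in undifferentiated cells alone (2.08 and 1.34). Called bins lay on both sides of 0 in all 5 windows.

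Lefty1 and Lefty2 encode secreted inhibitors of the TGF-beta family ligand Nodal, and lie 35919 bp apart on chromosome 1. Their joint window held 164 listed sites. The bin that covers Lefty1, chr1:180935001-180940000, had 71 reads in undifferentiated, 133 in untreated and 123 in treated cells. It was 1.62-fold higher in untreated (interval 1.20 to 2.19) and 2.13-fold higher in treated (interval 1.57 to 2.89) than in undifferentiated cells. With each unlisted site at 4 reads, the counts were 79, 133 and 127, and the call was kept in treated (1.97-fold, interval 1.48 to 2.65) but lost in untreated cells (1.45-fold, interval 1.09 to 1.94). Scaled to all mapped reads, neither call was kept (1.295-fold, interval 0.964 to 1.75, and 1.31-fold, interval 0.973 to 1.78).

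Within 1 kb of the start of Lefty1, all 4 CCGG motifs were listed in every library, with 51, 75 and 96 reads in undifferentiated, untreated and treated cells. The site 376 bp downstream of the start, at 180935398, had 14, 37 and 27 reads and was 2.28-fold higher in untreated (interval 1.20 to 4.56) and 2.37-fold higher in treated cells (interval 1.20 to 4.88). At 155 bp downstream, the site at 180935177 had 13, 23 and 32 reads and was called only in treated cells, at 3.02-fold (interval 1.54 to 6.27). The site 76 bp downstream, at 180935098, had 15, 10 and 26 reads, and was 2.13-fold higher in treated than in undifferentiated and 3.70-fold higher than in untreated cells. The fourth site, 268 bp upstream at 180934754, had 9, 5 and 11 reads and was called only between treated and untreated cells (3.13-fold, interval 1.002 to 11.5). Scaled to all mapped reads, none of these sites was called higher than in undifferentiated cells. The 3 sites downstream of the start are shown because they lie inside the first part of the gene, as 32 bp of the + strand with 14 bases on each side and CCGG in capitals.
Lefty1 180935098: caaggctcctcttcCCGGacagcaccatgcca
Lefty1 180935177: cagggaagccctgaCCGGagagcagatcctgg
Lefty1 180935398: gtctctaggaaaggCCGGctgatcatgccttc

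Upstream of Lefty2, 5 neighbouring sites within 247 bp were not listed in undifferentiated cells and were listed together in untreated cells. From 180888522 to 180888765, the 5 sites held 0 reads in undifferentiated, 73 in untreated and 5 in treated cells. The 4 sites from 180888735 to 180888765 lie 4373 to 4343 bp upstream of the start of Lefty2 and close enough to share fragments, so they are not independent measurements. At 180888735, 180888748, 180888760 and 180888765, there were 17, 15, 16 and 12 reads in untreated cells and 0, 0, 0 and 5 in treated cells. The first of these was at least 3.67-fold higher in untreated than in undifferentiated cells (interval 1.20 to 14.97). This cluster was listed almost only in untreated cells, although the ratio of treated to untreated cells at its first site, with the unlisted count at 4 reads, had an interval from 0.0819 to 1.03 and was not called. The stretch chr1:180888721-180888782 holds these 4 CCGG sites, in capitals, on the + strand.
Lefty2 upstream: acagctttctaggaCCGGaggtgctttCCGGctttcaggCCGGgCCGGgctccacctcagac

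The whole bin, chr1:180885001-180890000, had 46, 110 and 44 reads in undifferentiated, untreated and treated cells. It was 2.06-fold higher in untreated than in undifferentiated cells (interval 1.45 to 2.98) and 1.76-fold lower in treated than in untreated cells (ratio 0.569, interval 0.392 to 0.814). Of its reads in untreated cells, 73 were at the 5 sites above, 4 of which can share fragments, so these intervals can be too narrow. Neither call held with each unlisted site at 4 reads, where the counts were 66, 110 and 60 and the ratios 1.44 (interval 1.05 to 1.98) and 0.776 (interval 0.557 to 1.07). Nearer to the gene, 2697 bp upstream of Lefty2, the site at 180890411 had 0, 18 and 31 reads. It was at least 3.88-fold higher in untreated and at least 9.51-fold higher in treated than in undifferentiated cells (intervals 1.28 to 15.8 and 3.36 to 37.1), and 2.45-fold higher in treated than in untreated cells. Sites under 2 kb apart upstream of Lefty2 thus had opposite orders of the day 7 libraries.

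At the start of Lefty2 itself, the 2 CCGG motifs within 1 kb had 68, 127 and 74 reads in undifferentiated, untreated and treated cells. The upstream site at 180892524 had 47, 81 and 41 reads and the downstream one at 180893910 had 21, 46 and 33, and neither was called. Lower down the gene, the bin chr1:180895001-180900000 had 124, 80 and 65 reads and was 1.80-fold lower in untreated cells (ratio 0.556, interval 0.415 to 0.743). It was also called lower in treated cells.

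Further called bins of the Lefty window lay in or beside other genes. Next to Lefty1, the bin at 180940001, at the start of Tmem63a, had 39, 50 and 92 reads and was 2.89-fold higher in treated than in undifferentiated (interval 1.97 to 4.32) and 2.62-fold higher than in untreated cells (interval 1.84 to 3.77). With each unlisted site at 4 reads, these were 1.996-fold and 2.07-fold. Scaled to all mapped reads as well, the bin was not called against undifferentiated cells (1.233-fold, interval 0.883 to 1.74). It was still called against untreated cells (1.595-fold, interval 1.15 to 2.22). The site at 180944448 in it had 5, 13 and 30 reads. Relative to CCGG reads, this bin was called higher in treated cells alone.

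Lower bins in untreated cells were those at 180840001, with 128, 84 and 37 reads, at 180945001, with 456, 302 and 293, and at 180970001, with 494, 371 and 273. The last of these held the site with the smallest called ratio of the window, at 180971563 in an intron of Tmem63a, with 116, 12 and 16 reads (11.2-fold lower in untreated than in undifferentiated cells). Another intron site of Tmem63a, at 180962521, had 0, 24 and 28 reads and the largest called ratio, at least 5.18-fold higher in untreated cells. Sites of the same gene thus moved in opposite directions.

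In treated against undifferentiated cells, the bins at 180865001 (87, 129 and 114 reads) and 180915001 (51, 58 and 67 reads) were also called higher, but their log2 ratios of 0.68 and 0.69 turned to -0.01 when reads were scaled to all mapped reads of the library. Lower calls fell on the bins at 180845001 (101, 83 and 49 reads), 180920001 (93, 97 and 43 reads), 180950001 (147, 198 and 67 reads) and, most strongly, 180840001, at 2.82-fold lower. The site with the smallest called ratio, 12284 bp upstream of Lefty2 at 180880824, had 37, 18 and 0 reads. These bins lay outside both Lefty genes, whereas the bin at 180895001 given above, also called lower in treated cells, overlaps Lefty2.

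In treated against untreated cells, the bin at 180915001 was called higher, as was that at 180940001 given above, and those at 180840001, 180950001 and 180980001 (14, 31 and 10 reads) lower, of which the call at 180840001 was lost with each unlisted site at 4 reads (ratio 0.694). Between the Lefty genes, the site at 180911689 had 19, 13 and 34 reads and was 3.72-fold higher in treated than in untreated cells. No called bin between the Lefty genes was higher in untreated than in undifferentiated cells.

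**Figure D2:**
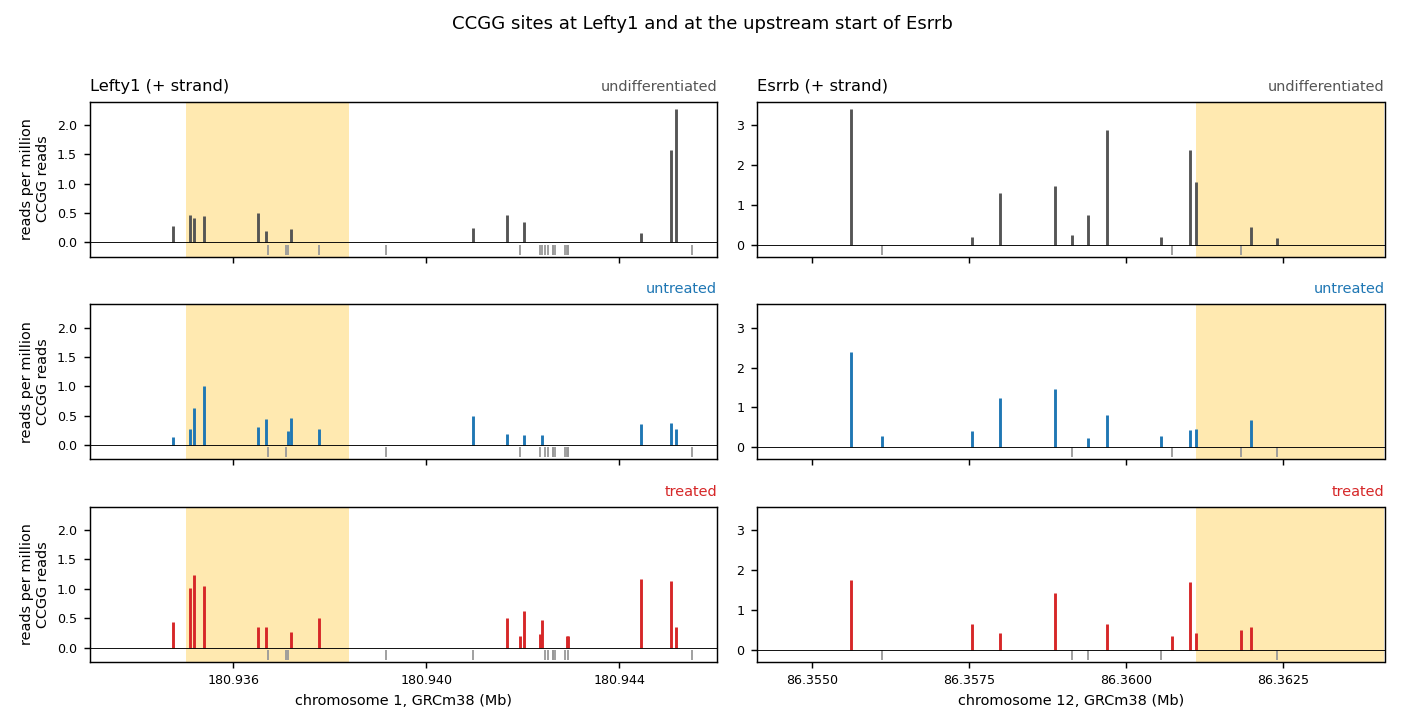
Reads per 1000000 CCGG reads (y axis) at each listed CCGG site around Lefty1 and around the upstream start of Esrrb (x axis, position in Mb on GRCm38) in undifferentiated, untreated and treated cells, with the gene shaded and grey ticks for motifs not listed in that library. The site at 180935398 in Lefty1 rises from 0.443 to 1.01 and 1.05, whereas the site 10 bp before the Esrrb start drops from 1.58 to 0.464 and 0.427.

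Sox2 encodes a transcription factor that binds DNA together with OCT4 in the pluripotency network. The gene had almost no reads: of 25 CCGG motifs within 1 kb of its start, 0 were listed in undifferentiated, 0 in untreated and 2 in treated cells, with 7 reads at 34650822 and 5 at 34651119. The counts were too low for a call at either site. Each of the 25 motifs had a 28 bp sequence found at 1 place in the genome. No gain was called at the Sox2 start.

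Differences near Sox2 lay at a distance, within the long noncoding gene Sox2ot or beyond it. About 39 kb upstream, both listed sites of the bin chr3:34610001-34615000 were higher on day 7. The site at 34610474 had 18, 63 and 31 reads, and that at 34611507 had 33, 90 and 71. The bin had 51, 153 and 102 reads and was 2.59-fold higher in untreated (interval 1.87 to 3.63) and 2.45-fold higher in treated (interval 1.74 to 3.51) than in undifferentiated cells. Both of its sites were called higher in both day 7 libraries, but scaled to all mapped reads only that at 34610474 in untreated cells was (2.42-fold, interval 1.415 to 4.34).

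Downstream of Sox2, the bin at 34680001 had 47, 89 and 81 reads and was 1.63-fold higher in untreated and 2.11-fold higher in treated cells. In it, the site at 34683187, 32782 bp downstream of the Sox2 start, had 0, 9 and 28 reads, and was at least 8.59-fold higher in treated than in undifferentiated cells (interval 3.01 to 33.7). In the neighbouring bin, 29083 bp downstream, the site at 34679488 in an exon of Sox2ot had 0, 27 and 14 reads, at least 5.82-fold higher in untreated cells (interval 2.03 to 22.9). Both sites went from unlisted to listed on day 7.

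Some sites upstream of Sox2 went the other way. The bin chr3:34635001-34640000 had 75, 29 and 20 reads and was 2.999-fold lower in untreated (ratio 0.333, interval 0.209 to 0.518) and 3.06-fold lower in treated cells (2.635-fold and 2.18-fold with each unlisted site at 4 reads). The loss came from a pair of sites 38 bp apart, 11880 and 11842 bp upstream of the Sox2 start. That at 34638525 had 42, 21 and 0 reads and that at 34638563 had 27, 0 and 0. Their sequences are given because both sites were unlisted in treated cells and carried the difference of the bin.
Sox2 34638525: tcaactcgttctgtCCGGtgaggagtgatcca
Sox2 34638563: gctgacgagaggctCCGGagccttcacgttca

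The neighbouring bin at 34640001 moved in the opposite direction, with 119, 198 and 165 reads, and was 1.70-fold higher in treated than in undifferentiated cells. Its site at 34642033 had 8, 0 and 20 reads, with the largest called ratio of treated to untreated cells in the window (at least 7.11-fold). The bins at 34685001 (91, 82 and 44 reads) and 34700001 (125, 103 and 35 reads) were lower in treated than in undifferentiated cells. Against untreated cells, the bins at 34700001 and 34630001 (211, 279 and 129 reads) were lower, the second not with each unlisted site at 4 reads (ratio 0.719), and no bin of the Sox2 window was called higher. Of 68 sites tested there, 7 were higher in treated than in untreated cells (10.3%), beside 10.0% in the genome.

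Trim28 encodes KAP1, a corepressor that KRAB zinc finger proteins bring to DNA. The annotated gene begins at 12999114, whereas its basic transcript begins at 13024152, and both starts were used. Within 1 kb of the transcript start, 1 of 5 CCGG motifs was listed, in treated cells only and with 8 reads. Within 1 kb of the annotated gene start, 3 motifs had 13, 35 and 74 reads in all. Most of these reads were at the site at 12999202, with 13, 35 and 58 reads, which was 2.32-fold higher in untreated (interval 1.20 to 4.78) and 5.47-fold higher in treated (interval 2.96 to 10.9) than in undifferentiated cells. The other 2 sites there, at 12998275 and 12998284, were listed in treated cells alone, with 8 reads each, and are close enough to share fragments.

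In the body of the Trim28 transcript, the bin that begins shortly after the transcript start gained reads on day 7. The bin chr7:13025001-13030000 had 36, 108 and 104 reads and was 2.59-fold higher in untreated (interval 1.76 to 3.89) and 3.54-fold higher in treated (interval 2.41 to 5.33) than in undifferentiated cells. A single exon site 5557 bp downstream of the transcript start, at 13029709, had 19, 88 and 83 of these reads (3.99-fold in untreated, interval 2.41 to 6.95, and 5.36-fold in treated cells, interval 3.23 to 9.35). The intron site at 13030612 had 5, 16 and 28 reads and was 6.87-fold higher in treated than in undifferentiated cells (interval 2.62 to 22.8). Its bin, at 13030001, also covers Chmp2a and had 136, 146 and 141 reads. That bin was not called against undifferentiated cells (0.926-fold in untreated and 1.27-fold in treated cells). The sequences of both sites are shown since both were called higher in treated than in undifferentiated cells.
Trim28 13029709: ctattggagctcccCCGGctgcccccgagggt
Trim28 13030612: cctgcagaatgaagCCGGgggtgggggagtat

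Between the 2 annotated starts of Trim28, reads differed from bin to bin. The bin at 13005001, which also covers Zbtb45, had 81, 168 and 108 reads and was 1.79-fold higher in untreated cells, and the bin at 13015001 had 14, 25 and 35 and was 3.07-fold higher in treated than in undifferentiated cells (interval 1.61 to 6.17). The bin at 13000001 had 139, 96 and 82 reads and was 1.68-fold lower in untreated cells. With each unlisted site at 4 reads, the calls in untreated cells at 13005001 (1.494-fold) and 13000001 (1.492-fold lower) were lost.

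Outside Trim28, the bins called lower lay on the side of Slc27a5 and the zinc finger genes. The bin at 12950001 had 74, 26 and 19 reads and was 3.30-fold lower in untreated and 3.17-fold lower in treated cells. The bin at 12990001 in Slc27a5 had 47, 27 and 9 reads and was 4.26-fold lower in treated cells (ratio 0.235, interval 0.101 to 0.485). In contrast, the bin at 12960001 had 37, 12 and 36 reads, so it was 3.58-fold lower in untreated cells and 4.27-fold higher in treated than in untreated cells (interval 2.17 to 9.01). These values were 2.145-fold lower and 2.56-fold higher with each unlisted site at 4 reads. Untreated cells were the low library in this last bin, which was not called between treated and undifferentiated cells.

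On the other side, the bin at 13040001 in Mzf1 had 61, 141 and 70 reads and was 1.99-fold higher in untreated cells, a call lost with each unlisted site at 4 reads (1.43-fold). The site at 13035542 in Ube2m had 7, 41 and 33 reads, the largest called ratio of untreated to undifferentiated cells in the window (5.05-fold, interval 2.24 to 13.4). The smallest were at 12974116, with 27, 0 and 5 reads, and, for treated cells, at 12951853, with 35, 14 and 0. In Zfp324, exon sites at 12970826 (15, 8 and 22 reads) and 12971162 (12, 30 and 0 reads) had the largest and smallest called ratios of treated to untreated cells. The bin at 12995001 had 140, 121 and 167 reads and, with those at 12960001 and 13015001, was higher in treated than in untreated cells. No bin of the Trim28 window was called lower in that comparison.

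Esrrb encodes an orphan nuclear receptor that sustains naive pluripotency. It is the longest of the 6 genes, with 173 of its 265 listed sites inside the gene, and has several transcript starts. At the most upstream start, 86361117, reads were lost on day 7. The site 107 bp upstream of it, at 86361010, had 75, 16 and 44 reads, and the site 10 bp upstream, at 86361107, had 50, 17 and 11. The first was 5.43-fold lower in untreated cells (ratio 0.184, interval 0.100 to 0.319) and was not called in treated cells, where it was 3.91-fold higher than in untreated cells (interval 2.16 to 7.43). The second was 3.41-fold lower in untreated (ratio 0.293, interval 0.159 to 0.517) and 3.71-fold lower in treated cells (ratio 0.270, interval 0.127 to 0.525). Relative to CCGG reads, untreated cells were low at both sites, and treated cells only at the one nearer the start.
Esrrb 86361010: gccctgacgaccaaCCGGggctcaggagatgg
Esrrb 86361107: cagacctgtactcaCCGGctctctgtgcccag

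The other sites within 1 kb of that start carried fewer reads. At 86360549, 86360723, 86361823 and 86361982, undifferentiated cells had 6, 0, 0 and 14 reads, untreated cells 10, 0, 0 and 25, and treated cells 0, 9, 13 and 15. Of these, only the site at 86361823 was called, at least 3.99-fold higher in treated cells. Over the bin, chr12:86360001-86365000, there were 150, 68 and 92 reads, 2.56-fold lower in untreated than in undifferentiated cells (ratio 0.391, interval 0.289 to 0.524) and 1.93-fold higher in treated than in untreated cells (interval 1.39 to 2.67). The bin before it, at 86355001, had 325, 251 and 127 reads and was 2.09-fold lower in treated cells. In untreated cells it was 1.501-fold lower, a call lost with each unlisted site at 4 reads (1.496-fold). Its site at 86359688 had 91, 30 and 17 reads. Relative to CCGG reads, the bin at the start was thus called lower in untreated cells alone. Scaled to all mapped reads, it was also called lower in treated than in undifferentiated cells (ratio 0.465, interval 0.355 to 0.607). Upstream of the first Esrrb exon, the lower call kept with each unlisted site at 4 reads was in treated cells.

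At the CpG-rich starts of Esrrb, 86421644 and 86421883, most motifs were unlisted in undifferentiated cells. Of 14 motifs within 1 kb of 86421883, 2 were listed in undifferentiated, 4 in untreated and 7 in treated cells, with 17, 22 and 66 reads. The site 331 bp upstream of 86421644, at 86421313, had 6, 0 and 23 reads, the largest called ratio of treated to untreated cells in the Esrrb window (at least 8.18-fold, interval 2.80 to 32.5). The site at 86421493 had 11, 0 and 5 reads. The other 7 listed sites near these starts, from 86421939 to 86422835, had at most 9 reads in any library and were not called. More motifs were listed in treated than in untreated cells.

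At the start at 86470117, both CCGG motifs within 1 kb had more reads on day 7, with 5, 27 and 42 reads in all. At 86469504 there were 5, 18 and 26 reads, 3.11-fold higher in untreated (interval 1.11 to 10.7) and 6.38-fold higher in treated cells (interval 2.41 to 21.3). At 86469692 there were 0, 9 and 16 reads, called only in treated cells. The bin at 86465001 that holds them had 59, 106 and 101 reads and was 2.10-fold higher in treated than in undifferentiated cells (interval 1.51 to 2.95). The next bin, at 86470001, had 61, 87 and 26 reads and was 1.91-fold lower in treated cells, and 2.35-fold lower against untreated cells (ratio 0.425, interval 0.263 to 0.665). The site at 86473891 in it had 10, 22 and 0 reads. With each unlisted site at 4 reads, the lower call at 86470001 against undifferentiated cells was lost (ratio 0.717) and that against untreated cells kept (ratio 0.569).
Esrrb 86469504: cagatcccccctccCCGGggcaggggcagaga
Esrrb 86469692: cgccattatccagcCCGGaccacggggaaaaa

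Within the Esrrb introns, higher bins in untreated cells included that at 86415001, with 76, 144 and 71 reads, which holds the site with the largest called ratio, at 86419283 (6, 39 and 24 reads, 5.61-fold). Lower bins were those at 86395001 and 86405001, whose reads follow, at 86490001 (32, 14 and 24 reads), where the call was lost with each unlisted site at 4 reads (ratio 0.701), and at 86440001 (35, 16 and 30 reads). In treated cells, the bin at 86450001 had 19, 18 and 40 reads and was 2.58-fold higher than in undifferentiated cells, and that at 86405001 had 62, 40 and 27 and was 1.87-fold lower. Treated cells were higher than untreated cells in the bins at 86440001, 86450001 (3.16-fold, interval 1.77 to 5.86) and 86395001 (66, 40 and 63 reads), and lower in that at 86480001 (118, 164 and 68 reads). Of 49 bins tested in the Esrrb window, 8 were higher (16.3%) and 2 lower (4.08%) in treated than in untreated cells, beside 10.7% and 8.81% in the genome.

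The 3′ end of Esrrb held the site with the largest loss in untreated cells of this window. At 86520278 there were 53, 0 and 0 reads, at least 15.4-fold lower in untreated cells (ratio 0.0651, interval 0.0171 to 0.177). An exon site at 86488567 had 97, 15 and 7 reads and was 11.3-fold lower in treated cells (ratio 0.0885, interval 0.0347 to 0.190). Chosen after its values were seen, the site at 86519448 in the same 3′ UTR as the first of these had 12, 53 and 13 reads and was called higher in untreated cells alone.

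Both flanks of Esrrb had bins that were higher on day 7. Downstream, the bin chr12:86530001-86535000 had 54, 145 and 78 reads and was 2.32-fold higher in untreated (interval 1.68 to 3.23) and 1.77-fold higher in treated cells. In it, the sites at 86531842 (32, 87 and 28 reads) and 86534163 (17, 58 and 41 reads) were both called higher in untreated cells, and the second also in treated cells. The bin at 86565001 had 84, 170 and 120 reads. Upstream, the bin at 86340001 had 54, 114 and 107 reads and was 1.82-fold higher in untreated and 2.43-fold higher in treated cells, whereas the bin at 86310001 had 174, 87 and 50 and was 2.32-fold and 2.84-fold lower. The intergenic site at 86326705, 34412 bp upstream of the gene, had 0, 9 and 44 reads and was at least 13.5-fold higher in treated than in undifferentiated cells (interval 4.91 to 51.7). Also on the flanks, the bin at 86320001 (130, 237 and 173 reads) was higher in both day 7 libraries, and that at 86535001 (149, 262 and 146 reads) in untreated cells only.
Esrrb 86326705: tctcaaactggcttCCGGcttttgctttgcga
Esrrb 86488567: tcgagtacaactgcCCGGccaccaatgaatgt

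Sall4 encodes a zinc finger transcription factor of ESCs. Its start went from unlisted to listed on day 7. The bin chr2:168765001-168770000, which covers the transcript starts on the − strand, had 0 listed reads in undifferentiated, 77 in untreated and 35 in treated cells. All 8 of its sites were unlisted in undifferentiated cells, 7 were listed in untreated and 5 in treated cells. With each unlisted site at 4 reads in every library, the counts were 32, 81 and 47, and the bin was still called higher in untreated (2.18-fold, interval 1.43 to 3.398) and in treated cells (1.80-fold, interval 1.13 to 2.92). With 4 reads at each of the 8 sites in undifferentiated cells alone, the ratios were 2.08 (interval 1.36 to 3.24) and 1.34 (interval 0.807 to 2.24), the second under the limit. Treated cells were 1.55-fold lower than untreated cells over the bin (ratio 0.647, interval 0.421 to 0.976), a call lost with each unlisted site at 4 reads (47 against 81 reads, ratio 0.825, interval 0.564 to 1.20). In the genome, 19265 of 361529 bins had 0 listed reads in undifferentiated cells. Of these, 758 had at least 30 reads in untreated cells and 1446 had at least 30 in treated cells. At least 70 reads in untreated cells were in 23, but that limit lies just under the 77 reads of the Sall4 bin, so it does not measure rarity. The Sall4 bin held 8 sites, beside a mean of 2.84 over all bins. In the windows of the 6 genes, it was the only bin with 0 reads in undifferentiated and at least 30 in untreated cells (1 of 152).

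Within 1 kb of the basic Sall4 starts, 14 CCGG motifs held 0, 28 and 18 reads. The site at 168767048, 19 bp upstream of the start at 168767029 and 153 bp downstream of the one at 168767201, had 0, 15 and 12 reads. It was at least 3.23-fold higher in untreated (interval 1.03 to 13.4) and at least 3.68-fold higher in treated cells (interval 1.12 to 15.7). The site at 168767669, 274 bp downstream of the annotated gene start at 168767943, had 0, 8 and 6 reads, and that at 168766353 had 0, 5 and 0. The other 11 motifs were listed in no library.
Sall4 168767048: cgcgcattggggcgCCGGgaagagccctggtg
Sall4 168767669: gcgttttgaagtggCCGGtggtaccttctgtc

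On both sides of the start, further sites were listed on day 7. In an intron, the site at 168765071 had 0, 17 and 0 reads. Upstream, the site at 168769473 had 0, 16 and 0 reads, that at 168771167 had 26, 77 and 51, and that at 168771634 had 19, 55 and 44. The last 2 were 2.55-fold (interval 1.62 to 4.15) and 2.497-fold higher in untreated (interval 1.46 to 4.46) and 2.41-fold and 2.84-fold higher in treated cells. Over 6567 bp, the 11 sites from 168765071 to 168771634 held 51 reads in undifferentiated, 228 in untreated and 130 in treated cells. In this stretch, taken after its values were seen, 6 of the 11 sites were called higher in untreated cells. The shares called higher were 14.8% of the sites tested in the Sall4 window and 12.5% in the genome. The stretch stops short of a site that was lower on day 7, given next. Its sums and its number of called sites thus depend on the chosen edges and are not compared with these shares.

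Beyond that stretch, the site at 168772448 had 71, 37 and 13 reads, 2.22-fold lower in untreated and 4.45-fold lower in treated cells. The bin that holds it together with those at 168771167 and 168771634 had 141, 198 and 115 reads, and was not called in any comparison. Here a bin without a call held opposite site differences of more than 2-fold.

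**Figure D3:**
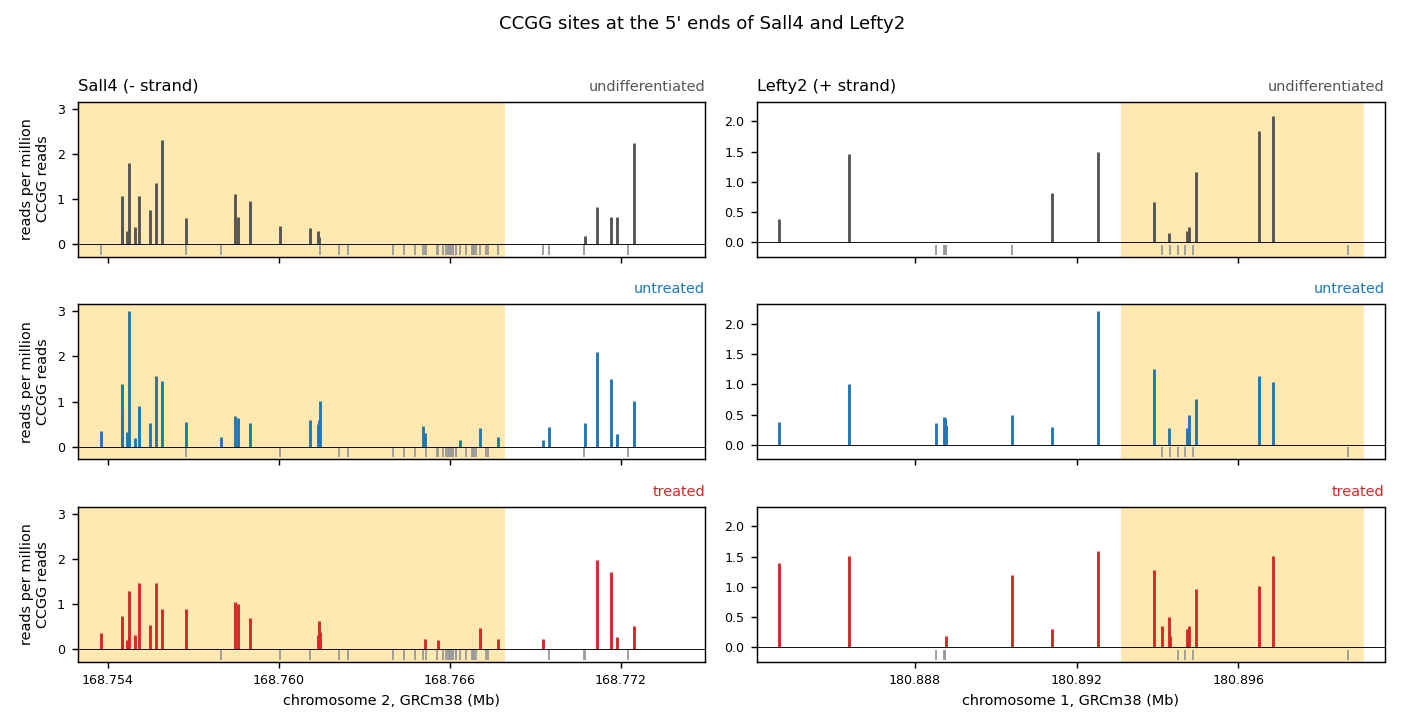
Reads per 1000000 CCGG reads (y axis) at each listed CCGG site around the 5′ ends of Sall4 and Lefty2 (x axis, position in Mb on GRCm38) in undifferentiated, untreated and treated cells, with the gene shaded and grey ticks for motifs not listed in that library. Over the Sall4 start, undifferentiated cells have ticks alone, untreated cells have 7 listed sites and treated cells 5, and the cluster upstream of Lefty2 has 73 reads in untreated and 5 in treated cells.

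Inside Sall4, an intron site 5593 bp downstream of a transcript start, at 168761436, had 0, 37 and 10 reads. It was at least 7.98-fold higher in untreated than in undifferentiated cells (interval 2.87 to 30.8), and 2.60-fold lower in treated than in untreated cells (ratio 0.384, interval 0.171 to 0.789). The neighbouring site at 168761411, close enough to share fragments, had 5, 22 and 16 reads. The bin, chr2:168760001-168765000, had 38, 99 and 34 reads, 2.25-fold higher in untreated cells (interval 1.53 to 3.36) and 2.05-fold lower in treated than in untreated cells (ratio 0.488, interval 0.321 to 0.728). Both calls were kept with each unlisted site at 4 reads (42, 103 and 42 reads). The stretch chr2:168761397-168761453 on the + strand holds both sites.
Sall4 intron: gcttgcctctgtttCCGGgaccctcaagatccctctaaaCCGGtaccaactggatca

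The rest of the Sall4 window lies largely in Atp9a. Its bin at 168740001 had 92, 233 and 158 reads and was 2.18-fold higher in untreated (interval 1.71 to 2.81) and 2.11-fold higher in treated cells, and the bin at 168710001 had 35, 79 and 67 and was 1.95-fold and 2.35-fold higher. The bins that were lower in untreated than in undifferentiated cells and higher in treated than in untreated cells were those at 168730001 (270, 171 and 225 reads), 168735001 (50, 24 and 45 reads) and, on the other flank, 168815001 (113, 66 and 70 reads). At the last, the call between treated and untreated cells was lost with each unlisted site at 4 reads (1.499-fold). The site at 168731192 in the first of these bins had 80, 0 and 12 reads and the smallest called ratio of untreated to undifferentiated cells near any of the 6 genes (at least 23.2-fold lower, ratio 0.0431, interval 0.0115 to 0.115).
Sall4 168731192: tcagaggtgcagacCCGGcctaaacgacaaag

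In treated cells, the bin at 168725001 had 326, 262 and 122 reads and was 2.18-fold lower than in undifferentiated cells, and its site at 168726413 had 108, 36 and 15. The bins at 168785001 (192, 130 and 117 reads) and 168805001 (94, 81 and 45 reads) were lower in untreated and in treated cells, respectively, and that at 168775001 (14, 21 and 31 reads) was 2.72-fold higher in treated cells. The site at 168739368 was listed in treated cells alone, with 24 reads. The intergenic site at 168812956 had 77, 84 and 15 reads and was 3.94-fold lower in treated than in untreated cells. Relative to CCGG reads, the bins called lower in treated than in undifferentiated cells thus lay outside Sall4.

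Bins and sites did not always give the same picture. In untreated against undifferentiated cells, 66 of the 112 bins without a call held at least 1 called site (58.9%), and 19 of them held called sites of both directions. The corresponding numbers in treated against undifferentiated cells were 78 of 111 (70.3%) and 35. In treated against untreated cells they were 59 of 121 (48.8%) and 11. Genome-wide, 39.7%, 43.2% and 23.7% of the bins without a call held a called site, but those bins had fewer listed sites, with means of 2.93, 2.86 and 2.84 per bin against 5.23, 5.495 and 5.14 near the 6 genes. Called sites of both directions were in 10.7%, 13.7% and 2.57% of the bins without a call in the genome, beside 16.96%, 31.5% and 9.09% near the 6 genes. Bins without a call include those with too few reads to be tested, so the sets differ in this too. In the 3 comparisons, 138, 137 and 136 of 152 bins near the 6 genes were tested, beside 283382, 278278 and 271928 of 361529 in the genome.

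Motifs in CpG-rich sequence were seldom read. Of 1011 CCGG motifs in the windows, 756 were listed in at least 1 library and 255 in none. In CpG-rich windows, 5 of 105 motifs were listed in undifferentiated (4.76%), 17 in untreated (16.2%) and 19 in treated cells (18.1%), beside 3.22%, 9.18% and 11.4% of the 93912 such motifs of the genome. Where CpG sites were sparse, 560, 569 and 560 of 762 motifs were listed (73.5%, 74.7% and 73.5%). In the genome, 60.4%, 60.2% and 60.1% of such motifs were listed. Within 1 kb of the basic transcript starts of Sox2, Trim28 and Sall4, 0 motifs were listed in undifferentiated cells, whereas those of Lefty1 and Lefty2 had all their motifs listed in every library.

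By position, sites at promoters of any gene near the 6 members were called higher in treated than in untreated cells in 18 of 91 cases (19.8%) and lower in 4 (4.40%). For promoter sites of the genome, the shares were 13.2% and 2.72%. In untreated against undifferentiated cells, 12.3% of 73 promoter sites were higher and 13.7% lower, beside 10.6% and 11.5% in the genome. In treated against undifferentiated cells, 23.9% of 92 were higher and 7.61% lower, beside 18.1% and 9.13%. In treated against untreated cells, introns near the members had 35 of 302 sites higher (11.6%) and 16 lower (5.30%), and intergenic sites 22 of 231 (9.52%) and 16 (6.93%). Of all sites outside promoters in the genome, 9.71% were higher and 4.11% lower. Within 5 kb of the start of an annotated member gene, 7 of 68 sites were higher in treated than in untreated cells (10.3%) and 3 lower (4.41%), beside 10.0% and 3.98% of all sites tested in the genome. There, 12 of 62 were higher and 12 lower in untreated than in undifferentiated cells (19.4% each, beside 12.5% and 15.2%), and 13 of 63 higher (20.6%) and 8 lower (12.7%) in treated than in undifferentiated cells, beside 17.4% and 14.2%. No test was made between these classes.

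The same counts were made around other genes of the pluripotency network and housekeeping genes, with no test of differences between the lists. Around 16 other pluripotency genes, such as Pou5f1, Nanog and Klf4, 197 of 1367 sites were higher in untreated than in undifferentiated cells (14.4%) and 196 lower (14.3%). Around 16 housekeeping genes, such as Actb and Gapdh, the numbers were 163 (11.4%) and 194 (13.6%) of 1427. In treated against untreated cells, 123 of 1400 sites around the pluripotency genes were higher (8.79%) and 63 lower (4.5%), beside 124 (8.61%) and 61 (4.24%) of 1440 around the housekeeping genes. In treated against undifferentiated cells, 255 of 1407 sites around the former were higher (18.1%) and 177 lower (12.6%), beside 207 (14.3%) and 170 (11.8%) of 1445 around the latter. The median log2 ratios of these lists lay between 0.06 and 0.30 in the 3 comparisons. Without such a test, the 6 genes were described by their single sites and bins and not by their numbers of calls.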

How the data were processed

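Genomic DNA of 3 libraries was digested with FspEI, and fragments of about 32 bp were sequenced. The authors trimmed the reads, aligned them to GRCm38 with Bowtie2 2.3.3 (the submitters' processing notes also name FastQC 0.11.3) and discarded reads with several places in the genome. The authors deposited a read count for sites of the motifs CCGG, CCAGG and CCTGG with 5 or more reads. The deposited RPM value of each site is its count scaled to the mapped reads. The CCGG counts were used here, and RPM only in an alternative scaling. The members are the genes of the study's quantitative PCR, but earlier results of these data were known when they and the gene lists were chosen.

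Sites inside a GENCODE M21 gene record or within 50 kb were taken, and Lefty1 and Lefty2 share 1 window. A promoter lay within 1 kb of the start of a GENCODE basic transcript, other categories came from the same transcripts, and CpG classes came from 500 bp windows (overlap 5 bp) with limits of 0.75 (CpG ratio) and 55% (GC content) for high and of 0.48 (CpG ratio) for low. Bins of 5 kb that crossed a window's edge were counted whole. Ratios of reads per 1000000 CCGG reads have exact conditional binomial (Clopper-Pearson) 95% intervals. With 1 library per condition, a call is a ratio past the limit (sites 2-fold, with an unlisted site at 4 reads, and bins 1.5-fold with at least 30 reads in the higher library) whose interval leaves out 1. For a site with an unlisted count the ratio is given as "at least". Sites with under 5 reads in both libraries were not tested. Named were, for each window and comparison, the called sites with the largest and the smallest ratio among those with at least 20 reads in the higher library, all called bins (at most 4 in each direction), and all sites within 1 kb of a member's start. Not every site and bin that this rule takes is described. Sites named in addition, as parts of a named bin or stretch, were chosen after their values were seen. Alternatives concerned the scaling, the limits, the count minimum, the bins, the window and the reference base. Sequences were read from GRCm38 in the RefSeq release. Calls and intervals were checked on simulated independent (Poisson) counts, based on sites with at least 20 reads in undifferentiated cells. Bin sums were checked on a small made-up example. The simulation held no PCR copies, no shared fragments and no variation between libraries beyond counting, so it does not bear on those. The software was SciPy 1.17.1, pandas 2.3.3, numpy 2.4.6 and matplotlib 3.10.9 under Python 3.11.15. CCAGG and CCTGG sites were left out, since nearly all their counts were the same in several lists.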

Additional observations from a re-analysis of the deposited data

Results flagged for a closer look

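Besides the CCGG sites, the treated list held 669 CCAGG sites in the windows of the 6 genes, with 9016 reads, whereas the undifferentiated and the untreated list each held 196, with 3094 reads. These sites stood out as a signal in data outside the comparisons of CCGG sites. The undifferentiated and untreated sums were thus equal, and the 214 CCTGG sites carried 3408 reads in each of the 3 lists, so no comparison was made at these motifs. Genome-wide, the untreated list held 1421071 sites of all motifs, 882955 of them CCGG. The treated list held 2055181, of which 892366 were CCGG. The paper instead gives more CCAGG and CCTGG sites for the untreated than for the treated library, so the untreated list used here did not match its count. Where the additional treated sites came from was not tested.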

How the results depend on the processing

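With 1 library per condition, no library could be left out. No paired analysis was possible because each condition had a single library. Of 120 numbers of called sites or bins under the alternatives, 77 stayed within 1.5 times the main number and 43 did not. The latter follow.

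Scaled to all uniquely mapped reads (RPM), log2 ratios shifted by -0.32 in untreated against undifferentiated, by -0.69 in treated against undifferentiated and by -0.38 in treated against untreated cells. Called sites were then 46 higher in untreated against undifferentiated, 44 higher and 218 lower in treated against undifferentiated, and 42 higher and 94 lower in treated against untreated cells. Called bins were 9 higher and 44 lower, 5 higher and 72 lower, and 7 higher and 37 lower in the same 3 comparisons. With this scaling, the lower calls outnumbered the higher ones in each comparison, so the balance of directions rests on the scaling to CCGG reads. The log2 ratio of treated to undifferentiated cells turned to -0.01 in the Lefty bins at 180865001 and at 180915001. Of the other log2 ratios of named sites and bins under the 3 scalings, 323 stayed inside the main counting interval and 29 moved outside it with the same sign.

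A fold limit of 3 left 46 sites higher and 58 lower in untreated against undifferentiated, 77 and 54 in treated against undifferentiated, and 49 and 17 in treated against untreated cells. A window of 20 kb left 54 sites lower in the first comparison, 80 higher and 46 lower in the second and 55 higher and 29 lower in the third, and 10 bins lower in the second, since fewer sites were tested. A fold limit of 2 for bins left 7 higher and 9 lower, 13 and 8, and 8 and 5. Bins of 2 kb gave 53 higher and 37 lower, 53 and 39, and 32 and 25, and bins of 10 kb gave 7 higher and 6 lower, 14 and 6, and 5 and 2. In treated against untreated cells, bins called lower were 7 on a grid shifted by 2.5 kb and 6 when each unlisted site added 4 reads. Where the setting itself does not give the cause, the cause was not tested.

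Median-ratio scaling (the DESeq2 type), a scaling total without sites above 10000 reads, sites under 10 reads taken as unlisted, positions whose reference is CCGG, a site limit of 1.5-fold and sites listed in both libraries kept every number within 1.5 times, and the median-ratio shift was at most 0.08 in size. Depth limits single sites, since the median listed site near the 6 genes had 24, 25 and 20 reads in undifferentiated, untreated and treated cells. With the unlisted count at 4 reads, the Sall4 site at 168767048 with 15 reads in untreated cells gave an interval that began at 1.03, close to the limit for a call.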
